A study of Mus musculus with 12 samples.

Results

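Genes of glutamine use and amino acid transport, 9 in number (*Glul*, *Glud1*, *Slc1a5*, *Slc7a5*, *Slc3a2*, *Slc7a11*, *Slc38a2*, *Got1* and *Got2*) were followed across 12 mouse lung tumors, as candidates for a response to reduced glucose uptake. The 9 genes were found by symbol among the 39017 genes listed in the count table, and all 9 were among the 16527 genes with enough reads to be tested. RNA came from the cells left after magnetic removal of immune cells (CD45 beads) from macrodissected lung tumors, 3 in each of 4 groups of mice of the C57BL6/J background. Every mouse carried K-rasLSL-G12D/WT and p53Fl/Fl, with the doxycycline-dependent activator rtTA under the CCSP promoter, which is active in club cells of the airway, and received by the trachea 6000 viral units of Lenti.TRE-PPARaD13_PGK-Cre. This vector makes Cre from the PGK promoter, which starts the tumors, and PPARαΔ13, a dominant negative form of the nuclear receptor PPARα, when rtTA and doxycycline are present. KP and KP-PPARαΔ13 mice were wild type (wt/wt) for *Slc2a1*, the gene of the glucose transporter Glut1, and KPG1 and KPG1-PPARαΔ13 mice carried Glut1Fl/Fl, which Cre deletes. The KP-PPARαΔ13 and KPG1-PPARαΔ13 mice ate 625 mg/kg doxycycline for 15 days and the KP and KPG1 mice a regular diet, so that diet and induction cannot be told apart. All tumors were taken 26 weeks after initiation.

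Glutamine is the most abundant free amino acid of the blood and feeds carbon and nitrogen into cells. *Slc1a5* (ASCT2) and *Slc38a2* (SNAT2) encode carriers that take up glutamine with sodium. *Slc3a2* (CD98, 4F2hc) encodes the heavy chain that brings light chains to the cell surface, among them that of *Slc7a5* (LAT1), which takes up large neutral amino acids, and that of *Slc7a11* (xCT), which takes up cystine in exchange for glutamate. In the cell, *Glul* encodes glutamine synthetase, *Glud1* the mitochondrial glutamate dehydrogenase, and *Got1* and *Got2* the cytosolic and mitochondrial aspartate aminotransferases, which work in the malate-aspartate shuttle. Tumor cells that are short of amino acids raise several of these genes through ATF4, a transcription factor that binds amino acid response elements.

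The promoters of 3 genes are shown because their genes carry the main patterns below: the light and the heavy chain of the cystine carrier, and *Got1*, which shares chromosome 19 with *Slc3a2*. They are taken from RefSeq on GRCm38.p6, the genome of mm10, and run from 250 bases before to 50 bases after the annotated start on the strand of the gene, in lower case. Capitals mark the core of the amino acid response element, TGATGNAA, on either strand.
Slc7a11 (chr3:50443564-50443863, minus strand): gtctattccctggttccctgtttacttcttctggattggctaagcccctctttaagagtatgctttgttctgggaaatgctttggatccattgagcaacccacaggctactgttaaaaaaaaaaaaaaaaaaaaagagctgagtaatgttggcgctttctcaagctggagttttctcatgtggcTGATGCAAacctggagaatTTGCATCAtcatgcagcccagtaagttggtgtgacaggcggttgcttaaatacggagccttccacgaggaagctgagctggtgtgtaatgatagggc
Got1 (chr19:43524556-43524855, minus strand): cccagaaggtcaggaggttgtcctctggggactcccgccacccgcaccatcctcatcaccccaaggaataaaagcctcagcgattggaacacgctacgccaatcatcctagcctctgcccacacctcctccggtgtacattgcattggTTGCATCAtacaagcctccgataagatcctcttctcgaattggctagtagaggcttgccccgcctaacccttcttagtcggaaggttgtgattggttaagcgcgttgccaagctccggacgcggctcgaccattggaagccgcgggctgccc
Slc3a2 (chr19:8713848-8714147, minus strand): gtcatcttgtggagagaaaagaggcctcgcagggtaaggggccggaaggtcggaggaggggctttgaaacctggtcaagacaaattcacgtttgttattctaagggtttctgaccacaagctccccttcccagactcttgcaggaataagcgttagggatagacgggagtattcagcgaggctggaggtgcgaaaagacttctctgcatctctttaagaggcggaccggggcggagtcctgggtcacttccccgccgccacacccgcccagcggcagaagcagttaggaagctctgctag

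The core was found at 2 places in the *Slc7a11* promoter, the first starting 66 bases before the start of the gene on its own strand and the second 47 bases before it on the opposite strand. It was found once in the *Got1* promoter, 102 bases before the start on the opposite strand. RefSeq promoters were at hand for 7 of the 9 genes, not for *Slc1a5* and *Slc7a5*. Of these only *Slc7a11* and *Got1* held the core, which 3.97% of 32851 promoters of this length held. The *Slc3a2* stretch lies inside the span of the gene in GENCODE M21 (8706882 to 8723369), at an internal start. The letters at the upstream end of *Slc3a2* were therefore not read. The letters CACGTG, bound by MYC, were in none of the 7 and in 7.15% of all promoters. The letters TGACNNNGC, the core of the antioxidant response element, were in the *Slc38a2* promoter and in 12.4% of all promoters. Such a match is a description of the letters only.

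Total counts ranged from 25263794 to 32654223 per tumor, and levels are given as CPM, the count scaled to a common library size after TMM normalization. Lung epithelial and alveolar type 2 markers were read in every tumor, with summed levels of 2444 to 5608 and 20898 to 66942 CPM, against 33.4 to 77.4 CPM for 6 leukocyte markers. Other cells were read too, with 79.0 to 502 CPM for endothelial, 59.0 to 355 for fibroblast and 319 to 1421 for erythroid markers. The labels were read beside *Slc2a1*, which had 41.7, 35.3 and 57.7 CPM in KP and 30.2, 64.0 and 39.9 CPM in the tumors labelled KPG1, a difference smaller than the spread. Counts by gene do not separate the floxed part from the rest, so these values do not test the deletion. The study reports the loss of Glut1 from real-time PCR of CD45-negative fractions and from staining of tumors. In the doxycycline groups *Slc2a1* had 153, 115 and 108 CPM in KP-PPARαΔ13, above all KP tumors, and 23.7, 53.2 and 54.5 CPM in KPG1-PPARαΔ13, without overlap. *Ppara* had 9.54 to 15.7 CPM in KP, then 2.71, 64.6 and 246 CPM in the tumors labelled KP-PPARαΔ13. It had 7.24 to 15.3 CPM in KPG1 and 8.90, 19.2 and 17.7 CPM in those labelled KPG1-PPARαΔ13, which overlap. The study reports that PPARα-related pathways were repressed with PPARαΔ13 in tumors of both genotypes. Names of groups below are those of the labels, and the PPARαΔ13 effect is the fitted change between the groups so labelled, whatever the induction in a tumor. A number in the labels, read here as that of the mouse, puts the 12 tumors in 9 mice. There were 3 mice in KP-PPARαΔ13 and 2 in each other group. KP held females only and KPG1 males only, so that sex and genotype cannot be told apart in this pair. KP-PPARαΔ13 held 1 female and 2 male tumors, and KPG1-PPARαΔ13 held 2 female and 1 male. Sex thus also differs between the groups of each PPARαΔ13 effect, in opposite directions in the 2 genotypes. It enters the difference of the effect between genotypes as well. P-values treat tumors as replicates, and part of their spread is within a mouse.

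None of the 9 genes differed between groups after adjustment over all genes tested. In KPG1 against KP, 0 of 9 passed an adjusted p of 0.05 in edgeR's quasi-likelihood test, where 0.0363% of all genes did. The count was also 0 of 9 for PPARαΔ13 within KP and 0 of 9 for PPARαΔ13 within KPG1, with a background of 0.00605% in each. It was 0 of 9 in KPG1-PPARαΔ13 against KP-PPARαΔ13 (background 0.0303%) and 0 of 9 for the difference of the PPARαΔ13 effect between the genotypes (background 0%). DESeq2 and limma voom also called 0 of 9 in every one of the 5 comparisons. At an unadjusted p under 0.05, edgeR counted 2 of 9 in KPG1 against KP (6.23% of all genes), 1 in KP-PPARαΔ13 against KP (11.4%), 2 in KPG1-PPARαΔ13 against KPG1 (10.8%), 1 in KPG1-PPARαΔ13 against KP-PPARαΔ13 (9.69%) and 2 for the difference (11.8%). The median log2 fold change of the 9 genes in these comparisons was 0.32, 0.15, -0.43, -0.27 and -0.30, beside medians of -0.029, -0.0082, 0.023, 0.0052 and 0.028 over all genes. Counts were also simulated for KPG1 against KP, with 200 genes of at least 10 CPM changed and tumors drawn independently. The share of changed genes recovered was 6.94% at a 2-fold and 77.8% at a 4-fold change. In this setting most 2-fold changes were thus not detected with 3 tumors a group. Tumors sharing a mouse and genes of a chromosome moving together were not simulated.

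**Figure D1:**
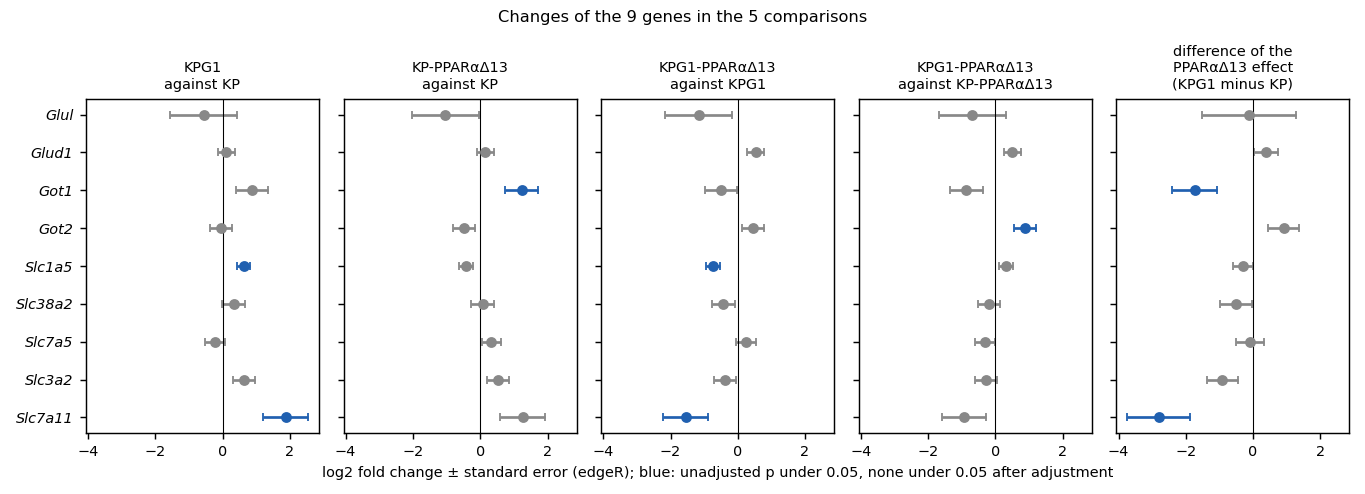
Log2 fold change with its standard error from edgeR for the 9 genes in the 5 comparisons, each fitted on the 12 tumors. Blue points have an unadjusted p under 0.05, and no gene passed 0.05 after adjustment. The widest error bars are those of *Glul* and *Slc7a11*.

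**Figure D2:**
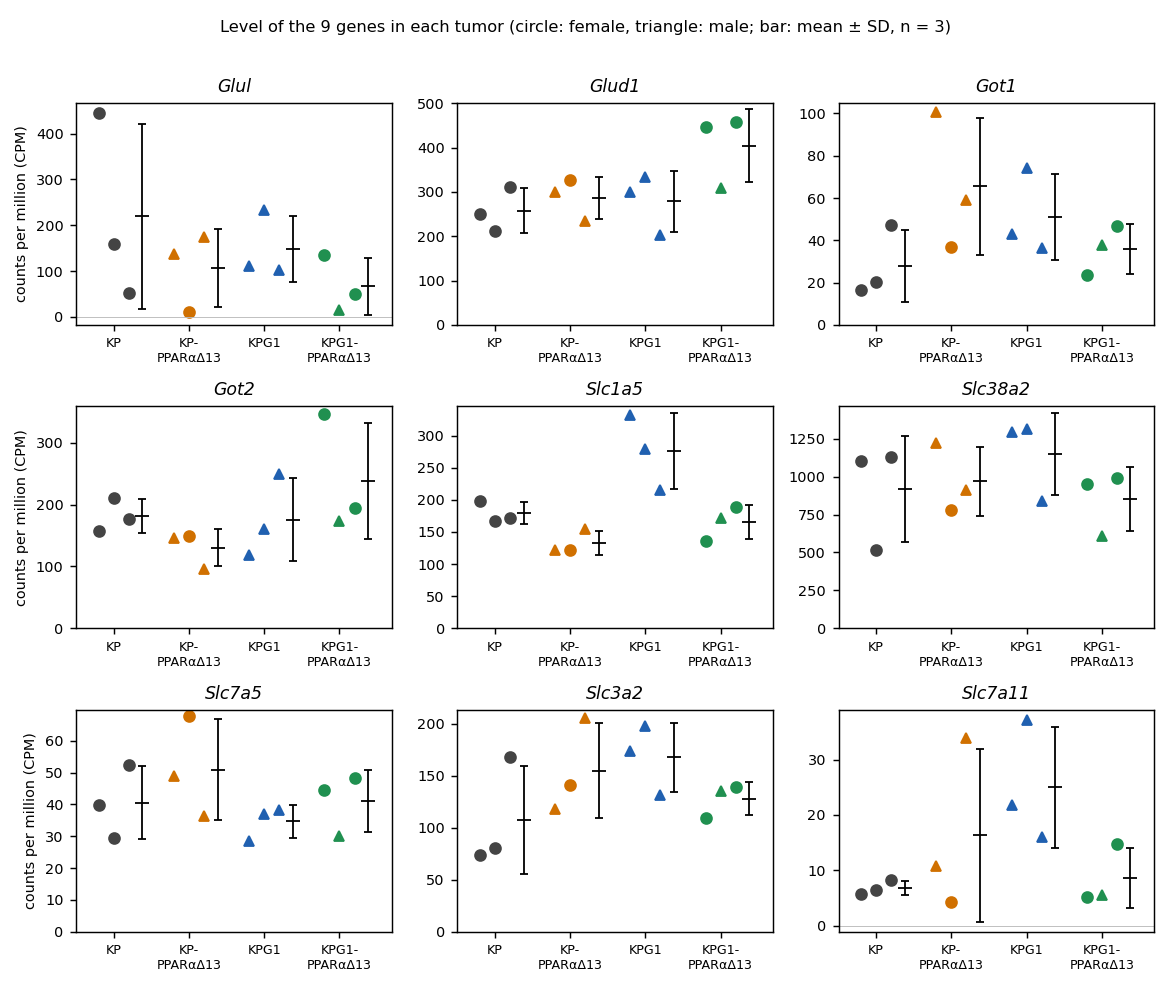
CPM of each gene in each tumor, with circles for females and triangles for males and a bar for the mean ± SD (n = 3) of the group. *Slc1a5* and *Slc7a11* are higher in the 3 KPG1 than in the 3 KP tumors, while *Glul* spreads from 10.6 to 445 CPM.

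The 9 genes differed widely in abundance. Per kilobase of merged exons, the mean over 12 tumors was highest for *Slc38a2* (110.0 CPM per kilobase) and then fell through *Glud1* (72.9), *Slc1a5* (45.1), *Glul* (40.7), *Slc3a2* (39.5), *Got2* (37.6), *Got1* (17.8) and *Slc7a5* (11.3) to *Slc7a11* (1.02). Neighbours in this order overlapped in their ranges over tumors, except the last pair, where *Slc7a5* ranged from 7.71 to 18.3 and *Slc7a11* from 0.304 to 2.67 CPM per kilobase. The annotated exons of *Slc7a11* are long (13922 bases), which lowers its value on this scale.

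*Slc7a11* had the largest fitted change among the 9 genes in KPG1 against KP (ENSMUSG00000027737; mm10 chromosome 3, 49892526 to 50443614, minus strand). It had 5.65, 6.52 and 8.25 CPM in the KP tumors and 21.7, 37.2 and 16.1 CPM in the KPG1 tumors. The lowest KPG1 tumor was thus higher than every KP tumor, a log2 fold change of 1.88 with a standard error of 0.67 (unadjusted p = 0.0172, adjusted p = 0.785, edgeR). These are tumors of 2 mice against 2. With tumors of the same mouse summed, *Slc7a11* had a log2 fold change of 1.70 (standard error 0.84). In KP-PPARαΔ13 it had 10.8, 4.23 and 33.9 CPM, the lowest of them below every KP tumor and the highest between the KPG1 tumors with 21.7 and 37.2 CPM. A stretch of 373 bases in its annotated exons is 96.2% identical to *Tuba1b*, 96.0% to *Tuba1a* and 95.4% to *Tuba1c*, tubulin genes with means of 95.8, 32.4 and 64.1 CPM, so the reads of that stretch are uncertain.

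In the KPG1-PPARαΔ13 tumors *Slc7a11* had 5.25, 5.57 and 14.8 CPM, all below the KPG1 tumors, a log2 fold change of -1.55 (standard error 0.67, unadjusted p = 0.0394, adjusted p = 0.447). The PPARαΔ13 effect was 1.26 in KP and -1.55 in KPG1 on the log2 scale, and the difference of -2.81 (standard error 0.94) had an unadjusted p of 0.0118 and an adjusted p of 0.351 in edgeR, and an adjusted p of 0.0827 in DESeq2. KP-PPARαΔ13 replicate 3, the tumor with 33.9 CPM, decided much of this: without it the effect in KP was 0.14 and the difference -1.69. With sex as a covariate the values fell to 1.10 (standard error 1.155) for KPG1 against KP and to -1.49 for the difference. As KP and KPG1 hold a single sex each, the sex term of such a fit comes from the doxycycline groups only. The summed level of 5 alveolar type 2 markers moved with *Slc7a11* between the KPG1 groups, with none of the 5 at 0. It ran from 39937 to 66942 CPM in KPG1 and from 23502 to 35040 CPM in KPG1-PPARαΔ13. In KP it ran from 22770 to 51340 CPM, overlapping KPG1, where *Slc7a11* did not overlap. The part of these markers in the result was not tested. In such bulk samples, fewer cells of a type and less RNA per cell cannot be told apart.

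The gene most like *Slc7a11* over the 12 tumors, among 10240 genes with a mean of at least 10 CPM, was *Cpt1a* (Pearson r = 0.989 of log2 CPM). *Cpt1a* lies on chromosome 19 and encodes the enzyme that lets long-chain fatty acids into mitochondria. *Cpt1a* had 109 to 118 CPM in KP, 86.9 to 217 CPM in KP-PPARαΔ13, 154 to 259 CPM in KPG1 and 104 to 157 CPM in KPG1-PPARαΔ13. Second was *Eif4a2*, a translation initiation helicase (r = 0.957). These likenesses are over 12 tumors of 4 groups that share their scaling, and are a description.

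*Slc3a2*, the heavy chain, overlapped between all groups (ENSMUSG00000010095; mm10 chromosome 19, 8706882 to 8723369, minus strand). It had 73.9, 80.4 and 168 CPM in KP and 174, 198 and 132 CPM in KPG1, so that the third KP tumor lay among the KPG1 tumors. In KP-PPARαΔ13 it had 118, 141 and 206 CPM and in KPG1-PPARαΔ13 109.8, 135 and 139 CPM, so that the ranges of all 4 groups crossed. The log2 fold change of KPG1 against KP was 0.64 (standard error 0.32, adjusted p = 0.787). *Slc3a2* and *Slc7a11* had r = 0.70 over the 12 tumors, 0.62 over the 9 mice and 0.088 without the 2 mice farthest from the median of *Slc7a11*.

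*Slc7a5*, the other light chain, showed no shared pattern with the heavy chain over tumors, with r = 0.049 (ENSMUSG00000040010; mm10 chromosome 8, 121881150 to 121907694, minus strand). It had 39.8, 29.5 and 52.2 CPM in KP, 48.8, 67.8 and 36.2 in KP-PPARαΔ13, 28.6, 37.1 and 38.2 in KPG1 and 44.5, 30.1 and 48.4 in KPG1-PPARαΔ13. Every group overlapped every other. Its fitted changes lay between -0.31 and 0.33 on the log2 scale in the 4 comparisons of groups, each with a standard error of 0.29.

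*Slc1a5*, the glutamine carrier ASCT2, was the gene of the 9 with the smallest spread within groups (ENSMUSG00000001918; mm10 chromosome 7, 16781340 to 16798274, plus strand). It had 198, 167 and 171 CPM in KP and 332, 279 and 215 CPM in KPG1, with no overlap (log2 fold change 0.62, standard error 0.20, unadjusted p = 0.0107, adjusted p = 0.785). KP-PPARαΔ13 tumors had 121, 122 and 154 CPM, KPG1-PPARαΔ13 tumors 136, 171 and 189 CPM. Each of these groups lay below the regular-diet group of its genotype in every tumor.

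For *Slc1a5* the PPARαΔ13 effect was -0.43 in KP (standard error 0.20, unadjusted p = 0.0562) and -0.74 in KPG1 (standard error 0.20, unadjusted p = 0.00397, adjusted p = 0.42 in edgeR and 0.0607 in DESeq2). These values do not differ between genotypes beyond their error, with a difference of -0.30 and a standard error of 0.29. With sex as a covariate the effects were -0.52 in KP and -0.65 in KPG1, each with a standard error of 0.26. The alveolar type 2 markers given for *Slc7a11* moved the same way between the KPG1 groups. In KP-PPARαΔ13 against KP, the 4 fibroblast markers did not overlap either, with summed levels of 178 to 355 CPM against 78.9 to 166 CPM, nor did 5 erythroid markers, with 849.9 to 1320 CPM against 319 to 765 CPM, with none of either list at 0, and their part in the results was not tested.

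*Slc38a2*, the glutamine carrier SNAT2, had the highest level per kilobase of the 9 and overlapped between all groups (ENSMUSG00000022462; mm10 chromosome 15, 96687392 to 96699730, minus strand). It had 1105, 517 and 1131 CPM in KP, 1222, 778 and 909 in KP-PPARαΔ13, 1294, 1315 and 839 in KPG1 and 954, 609 and 989 in KPG1-PPARαΔ13. Lowest were 1 tumor of KP and 1 of KPG1-PPARαΔ13. The fitted change of KPG1 against KP was 0.32 on the log2 scale with a standard error of 0.34.

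*Glul*, glutamine synthetase, varied most within groups (ENSMUSG00000026473; mm10 chromosome 1, 153899944 to 153909723, plus strand). It had 445, 159.6 and 52.8 CPM in KP, 137, 10.6 and 173 in KP-PPARαΔ13, 111, 232 and 102 in KPG1 and 135, 14.2 and 50.5 in KPG1-PPARαΔ13. The highest tumor had 42.0 times the level of the lowest, and both lowest tumors were replicate 2 of a PPARαΔ13 group. The SD of log2 CPM within groups was 1.61, larger than in 98.7% of the 10240 genes with a mean of at least 10 CPM, whose median was 0.33. The 4 fold changes of *Glul* between groups had standard errors of 0.99 to 1.00 on the log2 scale, beside changes of -1.16 to -0.56.

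The spread of *Glul* was also seen inside a mouse. Of the 3 mice with 2 tumors, the KP mouse had 445 and 159.6 CPM, the KPG1 mouse 111 and 232 CPM, and the KPG1-PPARαΔ13 mouse 135 and 50.5 CPM, ratios of 2.79, 2.09 and 2.67. For *Glud1* the same 3 ratios were 1.19, 1.11 and 1.02. *Slc38a2* differed 2.14 times between the tumors of the KP mouse and *Slc7a11* 2.81 times between those of the KPG1-PPARαΔ13 mouse.

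*Glud1*, glutamate dehydrogenase, had like levels in 3 of the groups (ENSMUSG00000021794; mm10 chromosome 14, 34310727 to 34345265, plus strand). It had 251, 211 and 312 CPM in KP, then 299.7, 327 and 234 CPM in KP-PPARαΔ13, and the KPG1 tumors had 300.0, 334 and 202 CPM. In KPG1-PPARαΔ13 it had 447, 309.7 and 457 CPM, with 2 tumors above all others. Against KPG1 this was a log2 fold change of 0.54 (standard error 0.25, unadjusted p = 0.0548, adjusted p = 0.472), or 0.24 with sex as a covariate.

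Of the aspartate aminotransferases, *Got1* (ENSMUSG00000025190; mm10 chromosome 19, 43499752 to 43524605, minus strand) had 16.3, 20.1 and 47.3 CPM in KP, 101, 37.0 and 59.0 in KP-PPARαΔ13, 43.1, 74.3 and 36.2 in KPG1 and 23.5, 37.8 and 46.8 in KPG1-PPARαΔ13. The first 2 KP tumors, from one mouse, were the lowest of all 12, and the third lay among the other groups. The PPARαΔ13 effect was 1.23 in KP (standard error 0.48, unadjusted p = 0.0263, adjusted p = 0.384) and -0.51 in KPG1 (standard error 0.48), with a difference of -1.74 (standard error 0.68, unadjusted p = 0.0258, adjusted p = 0.388). The effect in KP was 0.78 without KP-PPARαΔ13 replicate 1 and 1.85 without KP replicate 3, and the difference ranged from -2.36 to -1.29 when each tumor was left out. With sex as a covariate they were 0.76 and -0.84.

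*Got2* (ENSMUSG00000031672; mm10 chromosome 8, 95864134 to 95888547, minus strand) had 157, 211 and 176 CPM in KP, 146, 148 and 96.1 in KP-PPARαΔ13, 118, 160.0 and 249 in KPG1 and 346, 173 and 195 in KPG1-PPARαΔ13. All KPG1-PPARαΔ13 tumors were above all KP-PPARαΔ13 tumors, a log2 fold change of 0.87 (standard error 0.33, unadjusted p = 0.0217, adjusted p = 0.492), which was 0.50 without KPG1-PPARαΔ13 replicate 1. The fibroblast markers did not overlap between these groups either, with 86.0 to 129 CPM in KPG1-PPARαΔ13 against 178 to 355 CPM, and their part in the result was not tested. The processed pseudogene *Got2-ps1* on chromosome 5 is 99.1% identical to *Got2* over 1293 bases and was listed with a mean of 29.5 CPM, so the split of reads between them is uncertain. A like copy of *Glul*, *Glns-ps1* on chromosome 11, is 96.8% identical over 1126 bases and had a mean of 9.78 CPM.

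Groups that did not overlap were counted in each direction. In KPG1 against KP, 2 of 9 were higher without overlap (*Slc1a5*, *Slc7a11*; 4.82% of all genes) and 0 lower (5.13%). With PPARαΔ13, 2 of 9 were lower without overlap in KP (*Slc1a5*, *Got2*; 6.7% of all genes) and 2 in KPG1 (*Slc1a5*, *Slc7a11*; 9.41%), and 0 were higher in either (6.55% and 11.2%). In KPG1-PPARαΔ13 against KP-PPARαΔ13, 1 was higher (*Got2*; 10.3%) and 0 lower (7.25%). Comparisons that share a group are not independent.

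The levels of *Got1* and *Slc3a2* moved with those of their chromosome, a pattern that was looked for after the values were seen. Of the 50 genes most like *Got1* over the 12 tumors, 48 lie on chromosome 19, as *Got1* does, while 3.56% of all genes compared lie there. Of the 50 most like *Slc3a2*, on the same chromosome, 41 lie there. For the other 7 genes, 1 to 16 of the 50 lay on the gene's own chromosome, *Slc1a5* having 16 on chromosome 7, which holds 7.07% of genes. *Glud1* had 10 on chromosome 14 (3.51% of genes) and *Slc38a2* 10 on chromosome 15 (4.15%). The nearest genes to *Got1* were *Cacul1* and *Smndc1* (r = 0.963 and 0.961) and those to *Slc3a2* were *Cox8a* and *March5* (r = 0.922 and 0.915), all on chromosome 19.

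Others of the 9 were most like genes of a chromosome that is not their own. For *Glul*, on chromosome 1, 40 of the 50 most alike genes lie on chromosome 15, led by *Brd1* and *Fignl2* (r = 0.918 and 0.904). For *Got2*, on chromosome 8, 30 of the 50 lie on chromosome 13, and its nearest genes were *Slc38a7*, a lysosomal glutamine carrier on chromosome 8, and *Abt1* (r = 0.961 and 0.949). For *Slc7a11*, on chromosome 3, 24 lie on chromosome 19 and 1 on its own, and for *Slc38a2*, on chromosome 15, 24 lie on chromosome 1. *Glud1* was nearest to *Nme6* and *Rps27l* (r = 0.886 and 0.876), *Slc1a5* to *Maf1* and *Tbc1d17* (r = 0.920 and 0.917), *Slc38a2* to *Mal2* and *Acadl* (r = 0.917 and 0.909) and *Slc7a5* to *Amot* and *Gm12346* (r = 0.837 and 0.830).

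**Figure D3:**
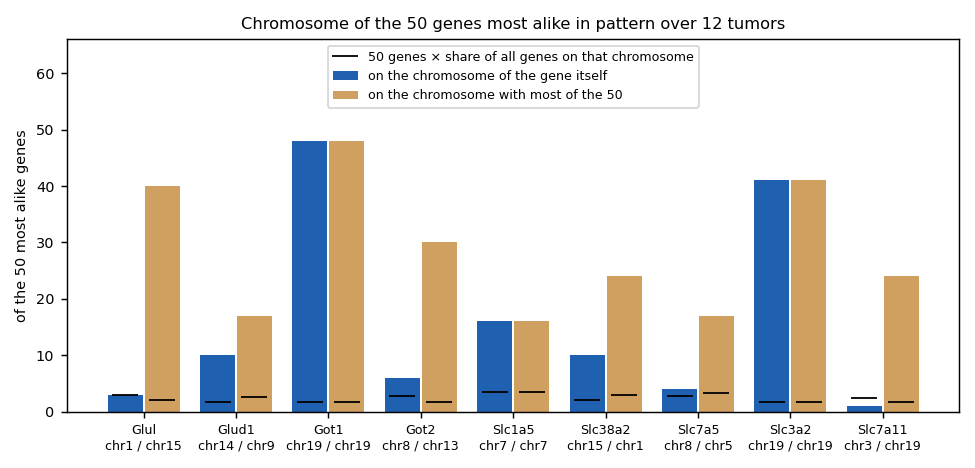
For each gene, how many of the 50 genes most alike in log2 CPM over the 12 tumors lie on its own chromosome (blue) and on the chromosome that holds most of the 50 (tan), with a black mark at 50 times the share of all genes on that chromosome. Under each name stand its own and the leading chromosome. *Got1* and *Slc3a2* stand out with 48 and 41 genes on chromosome 19.

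The level of chromosome 19 as a whole differed between tumors more than that of any other of 20 chromosomes. The median deviation of its genes from their mean over the tumors ran from -0.69 in KP replicate 1 and -0.43 in KP replicate 2, the tumors of one mouse, to 0.66 in KPG1 replicate 2, a range of 1.35 on the log2 scale. Over the 20 chromosomes the range was 0.30 to 1.35. *Got1* deviated in the same tumors by -1.29, -0.99 and 0.89, and *Slc3a2* by -0.85, -0.73 and 0.57.

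Over the 9 mice, the level of *Got1* correlated with the median of the other 365 genes of chromosome 19 with Pearson r = 0.930 (exact permutation p = 0.000124, adjusted p = 0.00112 over 9 relations) and Spearman rho = 0.933 (exact permutation p = 0.00075, adjusted p = 0.00675). The relation held without the 2 mice farthest from the median (r = 0.880, adjusted exact permutation p = 0.0125). On values centred on group means r was 0.918 (adjusted permutation p = 0.00667). Centring ties the values of mice of one group. Permutation p-values on centred values are therefore not exact and can be too small. For *Slc3a2* r was 0.816 (exact permutation p = 0.00786, adjusted p = 0.0236) and rho 0.583 (exact permutation p = 0.108, adjusted p = 0.194). The r of *Slc3a2* was 0.773 on centred values (adjusted permutation p = 0.0362). It was 0.409 without the 2 farthest mice (adjusted exact permutation p = 0.6375), where fewer mice over a narrower range are left. The relation of *Slc3a2* was thus not seen apart from those mice. *Slc1a5* with chromosome 7 had r = 0.881 (exact permutation p = 0.00348, adjusted p = 0.0157) and rho = 0.717 (adjusted exact permutation p = 0.151). Its r was 0.820 on centred values (adjusted permutation p = 0.0237) and 0.537 without the 2 farthest mice (adjusted exact permutation p = 0.603). The other 6 genes had r from 0.312 to 0.602, with adjusted exact permutation p-values of 0.194 to 0.411. On centred values r was 0.847 for *Got2* with chromosome 8 (adjusted permutation p = 0.0237) and 0.746 for *Glud1* with chromosome 14 (adjusted permutation p = 0.0432). The limit given above holds for these p-values too. Neither sex had 6 mice, so the relation was not computed within a sex.

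**Figure D4:**
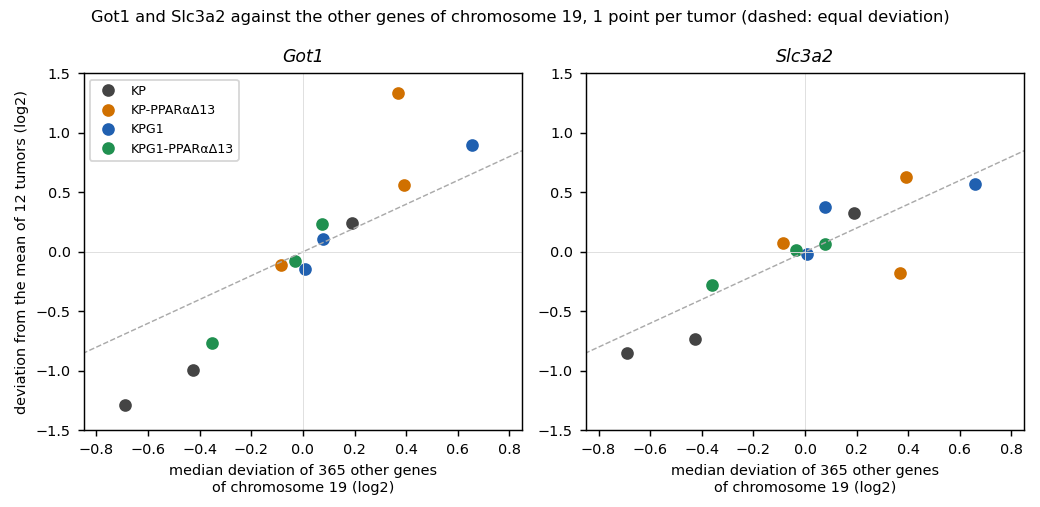
Deviation of *Got1* (left) and *Slc3a2* (right) from their mean over 12 tumors against the median deviation of 365 other genes of chromosome 19 (log2), 1 point per tumor, colored by group, with a dashed line of equal deviation. The KP tumors at the lower left are replicates 1 and 2, and *Got1* moves more steeply than the median.

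Taking the median of its chromosome away from each gene left *Slc3a2* with an SD over tumors of 0.24 on the log2 scale, against 0.46 before, and *Got1* with 0.42 against 0.76. For *Glul* (1.49 against 1.58), *Slc7a5* (0.37 against 0.37) and *Slc7a11* (1.05 against 1.07) the SD moved by less than 0.1. So it did, from smaller values, for *Glud1* (0.31 against 0.37), *Got2* (0.40 against 0.48), *Slc1a5* (0.36 against 0.44) and *Slc38a2* (0.34 against 0.42). DNA copy number was not analysed here, and why genes of one chromosome moved together was not tested.

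With the chromosome medians as offsets in the edgeR fit, the fitted changes of the chromosome 19 genes shrank. *Slc3a2* went from 0.64 to 0.17 in KPG1 against KP, from 0.53 to 0.09 in KP-PPARαΔ13 against KP and from -0.92 to -0.12 for the difference between genotypes. *Got1* went from 0.88 to 0.39, from 1.23 to 0.77 and from -1.74 to -0.90. *Slc1a5* went from 0.62 to 0.40 in KPG1 against KP, while *Slc7a11* kept most of its value there, 1.70 after 1.88. The offset of *Slc7a11* is the median of chromosome 3, with which it had r = 0.365 over the 9 mice. The median of chromosome 19, where 24 of its 50 most alike genes lie, was not taken from it. With these offsets 0 of 9 passed the adjusted threshold in each of the 5 comparisons, and 1 or 2 of 9 an unadjusted p of 0.05, beside 6.93% to 12.6% of all genes.

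**Figure D5:**
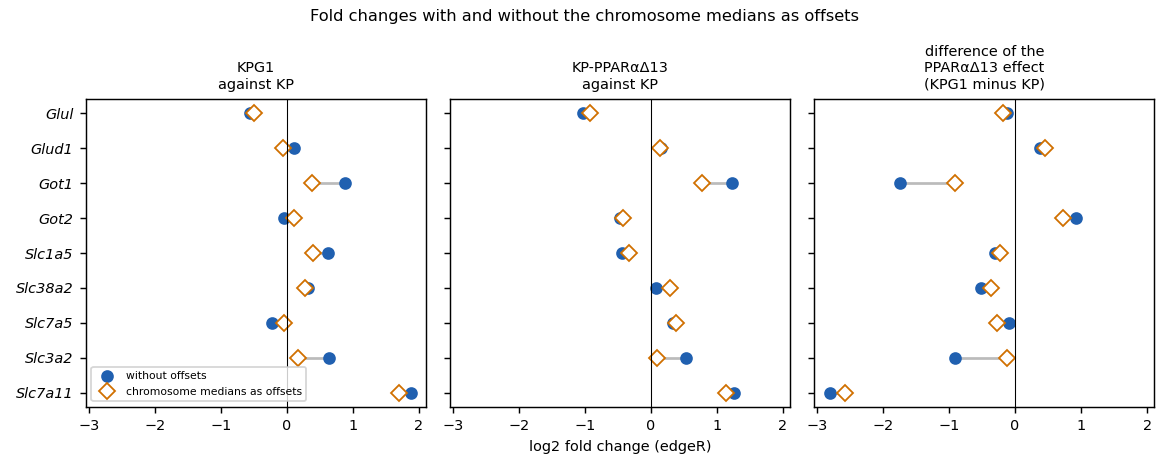
Log2 fold change from edgeR without (blue circles) and with (open diamonds) the median of each tumor's chromosomes as offsets, for KPG1 against KP, KP-PPARαΔ13 against KP and the difference of the PPARαΔ13 effect. *Slc3a2* and *Got1* move toward 0 in all 3, and *Slc7a11*, whose offset is that of chromosome 3, stays near its value.

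Pairs with a shared protein complex, substrate or reaction were correlated over the 9 mice, 4 in all. None passed 0.05 by Pearson's r after adjustment over the 4 pairs. *Slc7a11* and *Slc3a2* had r = 0.618 (exact permutation p = 0.0742, adjusted p = 0.148) and rho = 0.367 (adjusted exact permutation p = 0.448), and *Slc7a5* and *Slc3a2* r = 0.022 (adjusted exact permutation p = 0.955) and rho = -0.050 (adjusted exact permutation p = 0.912). *Slc7a5* and *Slc1a5* had negative values, with r = -0.647 (exact permutation p = 0.0572, adjusted p = 0.148) and rho = -0.533 (adjusted exact permutation p = 0.295). *Got1* and *Got2* had r = -0.503 (exact permutation p = 0.155, adjusted p = 0.206) but rho = -0.833 (exact permutation p = 0.00827, adjusted p = 0.0331). On values centred on group means their r was -0.269 and their rho -0.467 (adjusted permutation p = 0.283). Without the 2 mice farthest from the median of the first gene, r was -0.183 for *Slc7a5* and *Slc3a2*, -0.590 for *Slc7a5* and *Slc1a5* and -0.822 for *Got1* and *Got2*.

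The other genes of the pathway were read from 4 lists (enzymes of glutamine and glutamate, amino acid transporters, the malate-aspartate shuttle, and amino acid response and growth regulators) with 71 genes beside the 9, of which 68 were tested. In edgeR 0 of 68 passed an adjusted p of 0.05 in any of the 5 comparisons, and in limma voom likewise. At an unadjusted p under 0.05, edgeR counted 10 of 68 in KP-PPARαΔ13 against KP (2 higher, 8 lower), beside 11.4% of all genes. It counted 5 in KPG1-PPARαΔ13 against KPG1 (*Slc38a1*, *Asns* and *Slc3a1* higher, *Slc1a3* and *Gpt* lower), beside 10.8% of all genes. In KPG1 against KP it counted 5 (*Slc3a1*, *Mlxipl*, *Slc36a1*, *Slc38a1* and *Slc7a8*, all lower), beside 6.23%. There were 8 in KPG1-PPARαΔ13 against KP-PPARαΔ13 (6 higher, 2 lower), beside 9.69%, and 9 for the difference, beside 11.8%. In the same order DESeq2 called 4 (*Mlxipl*, *Slc38a1*, *Slc38a4*, *Slc3a1*), 1 (*Slc1a3*), 0, 2 (*Slc38a1*, *Slc3a1*) and 5 (*Abat*, *Mlxipl*, *Slc38a1*, *Slc3a1*, *Slc7a8*), where it called 2.25%, 1.28%, 0.363%, 0.938% and 1.73% of all genes. The median log2 fold change of the 68 was between -0.086 and 0.074.

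Among the transporters, *Slc3a1*, the heavy chain of the cystine and dibasic amino acid carrier of kidney, had 11.1, 12.7 and 31.1 CPM in KP, in rising order. It had 3.81 to 4.62 CPM in KP-PPARαΔ13, 5.61 to 7.96 in KPG1 and 6.34 to 16.6 in KPG1-PPARαΔ13. Its log2 fold change between the KP groups was -2.15 (adjusted p = 0.256 in edgeR, 0.00137 in DESeq2). Of the other transporters called by DESeq2, *Slc7a8* had 1.75, 1.98 and 22.3 CPM in KP and *Slc38a4* 20.7, 57.0 and 197 CPM, so a high tumor weighs on them too. *Slc38a1*, a glutamine carrier related to *Slc38a2*, had 6.92 to 79.4 CPM in KP, 2.31 to 5.58 in KP-PPARαΔ13, 0.661 to 12.1 in KPG1 and 14.6 to 66.8 in KPG1-PPARαΔ13, and its difference of the PPARαΔ13 effect was 5.95 (adjusted p = 0.33 in edgeR, 0.000888 in DESeq2). *Slc1a3*, a glutamate carrier, had 48.4 to 101 CPM in KPG1 and 8.97 to 23.4 in KPG1-PPARαΔ13, a log2 fold change of -2.23 (adjusted p = 0.42 in edgeR, 0.0184 in DESeq2). *Slc36a1*, a lysosomal amino acid carrier, had a log2 fold change of -0.83 in KPG1 against KP (adjusted p = 0.785).

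Among the enzymes, *Asns*, asparagine synthetase and a target of ATF4, had 25.1 to 44.1 CPM in KPG1 and 54.9 to 77.8 CPM in KPG1-PPARαΔ13, without overlap (log2 fold change 0.86, adjusted p = 0.435). *Gpt*, alanine aminotransferase, had 45.2 to 110.0 CPM in KPG1 and 17.9 to 32.1 in KPG1-PPARαΔ13 (log2 fold change -1.73, adjusted p = 0.435). *Abat*, which degrades GABA, had at most 10.9 CPM in any tumor.

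Of the regulators, *Mlxipl*, the glucose-sensing factor ChREBP, had 1.88, 2.54 and 18.7 CPM in KP, in rising order, with the highest tumor far above the others. In KP-PPARαΔ13 it had 0.411 to 0.502 CPM, a log2 fold change of -4.04 (adjusted p = 0.256 in edgeR, 0.000255 in DESeq2). *Atf4* had 169 to 313 CPM in KP and 198 to 321 CPM in KPG1, which overlap. *Ddit4*, an inhibitor of mTORC1 that stress induces, had 44.1 to 61.7 CPM in KP and 66.6 to 97.1 CPM in KP-PPARαΔ13 (log2 fold change 0.60, adjusted p = 0.334). In the malate-aspartate list no gene other than *Got1* and *Got2* had an unadjusted p under 0.05 in any comparison. *Mdh2*, its mitochondrial malate dehydrogenase, had a log2 fold change of 0.37 with PPARαΔ13 in KP (adjusted p = 0.64).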

How the data were processed

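The authors sequenced single-end reads from TruSeq stranded mRNA libraries and deposited raw read counts by gene, tumor by tumor and in a combined table. The single tables and the combined one held equal counts (0 differing values). Per the labels' processing notes, the tools were bcl2fastq 2.17, cutadapt 1.4.2, HISAT2, featureCounts 1.4.4 and edgeR with build mm10. The study's methods name another Cutadapt version, and the gene annotation and strand setting of the counting are not given in the sources used here. Scaled log2 values, also deposited, entered no test.

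From the counts, edgeR 4.0.16 under R 4.3.3 was run on 16527 of 39017 genes (filterByExpr by group, TMM, glmQLFit and glmQLFTest), with one fit of all 12 tumors (residual degrees of freedom 8), a biological coefficient of variation of 0.44 and Benjamini-Hochberg adjustment over all genes at 0.05. The standard error of a log2 fold change was taken from it and the F statistic. CPM are TMM-scaled, and log2 CPM use a prior count of 2. Correlations used means per mouse, two-sided exact permutation tests with 9 or fewer mice and 100000 permutations with 12 tumors. On values centred on group means the permutations are not exact, as centring ties the mice of a group. Positions and exon lengths come from GENCODE M21, and near copies from BLAST+ 2.17.0 with at least 95% identity over 200 bases. The edgeR step was tested on simulated data, in which 200 genes were changed.

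Groups were taken from the labels. Named are the 9 genes, of each list genes called in any comparison and up to 3 per comparison with the smallest unadjusted p, the 2 genes most like each of the 9, and *Slc2a1* and *Ppara* as checks; *Atf4*, *Slc7a8*, *Got2-ps1* and *Glns-ps1* were added after values were seen. The members and lists were chosen with earlier results of these data known. Alternatives were DESeq2 1.42.0, upper-quartile normalization, limma 3.58.1 voom, a fit with every gene kept, the compared groups only, sex as a covariate, the replicate block, tumors of one mouse summed, leaving out each tumor, and, added after seeing the data, chromosome medians as offsets. At depths of 25263794 counts and above per tumor, the spread between tumors and not the depth sets the precision of the 9 genes. No DNA data were analysed here.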

Additional observations from a re-analysis of the deposited data

How the results depend on the processing

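None of the 9 genes was called in any comparison under any alternative. Over 8 alternatives, leaving out a tumor and chromosome offsets apart, 344 of 351 fold changes kept their direction, with adjusted p-values of 0.0607 and above, and over the 12 fits without a tumor 302 of 324 did. With sex as a covariate, *Slc7a5* became -0.22 in KPG1-PPARαΔ13 against KPG1 and 0.42 in KPG1 against KP (standard error 0.35), *Got2* 0.42 in KPG1 against KP, and the difference of the PPARαΔ13 effect 0.97 for *Glul* and -0.19 for *Glud1*. With tumors of the same mouse summed, *Glud1* became -0.045 and *Got2* 0.13 in KPG1 against KP. With chromosome medians as offsets, *Glud1* became -0.059 and *Got2* 0.11 in KPG1 against KP, and *Slc3a2* 0.047 in KPG1-PPARαΔ13 against KP-PPARαΔ13. The cause was not tested.

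Leaving out a tumor turned a direction in 9 results. In KPG1 against KP, *Glud1* ranged from -0.018 to 0.32, *Glul* from -1.03 to 0.49 and *Got2* from -0.36 to 0.17. In KP-PPARαΔ13 against KP, *Glul* ranged from -1.57 to 0.011 and *Slc38a2* from -0.21 to 0.26. In KPG1-PPARαΔ13 against KP-PPARαΔ13, *Slc38a2* ranged from -0.33 to 0.011 and *Slc7a11* from -1.59 to 0.18. For the difference of the PPARαΔ13 effect, *Glul* ranged from -1.17 to 0.41 and *Slc7a5* from -0.31 to 0.17. The values of *Glul* against KP turned without KP replicate 1, and that of *Slc7a11* without KP-PPARαΔ13 replicate 3.

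Over 12 tumors in place of 9 mice, *Slc7a11* and *Slc3a2* had r = 0.696, past the threshold with an adjusted permutation p of 0.0496. Their rho was 0.601 (adjusted permutation p = 0.173), which did not pass. These permutations count tumors of one mouse as independent, so the values over mice are the ones to rely on. The correlation of *Slc7a5* and *Slc3a2* was -0.183 without the 2 farthest mice and ranged from -0.294 to 0.180 when each mouse was left out. Replicate numbers did not pair the tumors, with correlations of their deviations of -0.19 to 0.10 between same-numbered tumors, and the replicate block called 0 of the 9 genes in each comparison.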
